A study of Canis lupus familiaris with 13 samples.

Results

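Cytosolic heat shock chaperones were followed in biopsies of the canine biceps femoris, a thigh muscle, through 10 genes: DNAJB4, DNAJB1, DNAJA1, HSPA8, HSPH1, BAG3, HSPB1, HSPB8, CRYAB and HSP90AA1. They were chosen by gene symbol, and DNAJB4 was the reason for the choice because it was already known to be lower in insulin than in basal libraries of these dogs. All 10 symbols occurred once among the 30951 genes of the deposited table, and all 10 were among the 14629 genes that passed the filter on low counts. RNA sequencing covered 4 wild-type dogs aged 9 to 10 months. The insulin-stimulated libraries were sample 1 (n = 4, dogs 1 to 4), sample 2 (n = 4, dogs 1 to 4) and sample 3 (n = 2, dogs 1 and 2), and the basal libraries were sample 0 (n = 3, dogs 2, 3 and 4). The labels state neither what the sample number stands for nor the insulin dose or time, and dog 1 has no basal library here. Libraries of 1 dog are repeated samples of 1 animal, so the dog was a term in each comparison of stimulation or sample number.

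Heat shock proteins keep other proteins folded. J proteins (the DNAJ families) bring unfolded clients to HSP70 proteins and start their ATP cycle, nucleotide exchange factors release the client, HSP90 finishes the folding of kinases and receptors, and small heat shock proteins hold unfolding clients in a soluble state. In skeletal muscle, BAG3 joins HSPB8 and HSC70, the protein of HSPA8, to clear damaged filamin from the Z-disc, and loss of DNAJB4 or mutation of BAG3, HSPB8, HSPB1 or CRYAB causes muscle or nerve disease in humans.

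Library totals ranged from 45200416 to 81948641 counts, so every chaperone was well sampled. The lowest raw count of any member in any library was 255, for DNAJB1, and DNAJB4 had 2259 to 19621 counts. ACTA1, the skeletal muscle actin, took 18.4% of the counts in dog 1 sample 2 and 10.4% to 13.7% in the other libraries, and all 8 listed skeletal muscle markers were counted in every group. Levels are given as CPM, counts scaled to a common library total after TMM normalization. They are not corrected for transcript length, so levels of different genes are not compared.

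DNAJB4 (ENSCAFG00000020357), a J protein of muscle and other tissues, was lower in every insulin library than in the basal library of the same dog. In dog 2 it had 46.8, 85.6 and 79.8 CPM in insulin samples 1, 2 and 3, against 308 CPM in the basal library. Dog 3 had 52.2 and 66 CPM in insulin samples 1 and 2, against 92.0 CPM basal. Dog 4 had 50.8 and 45.2 CPM in insulin samples 1 and 2, against 122 CPM basal. All 7 insulin libraries with a basal partner thus lay below it, and the insulin mean was 23.0%, 64.3% and 39.4% of the basal level in dogs 2, 3 and 4. Among all genes tested, 3.44% showed such a one-sided fall in these 3 dogs. Dog 1, which has no basal partner, had 82.4, 117 and 97.0 CPM in insulin samples 1, 2 and 3. The groups overlapped across dogs, because insulin samples 2 and 3 of dog 1 were above the basal library of dog 3.

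Over the groups, DNAJB4 averaged 72.3 ± 24 CPM in insulin libraries (SD, n = 10) and 174 ± 117 CPM in basal libraries (SD, n = 3). Its log2 fold change within dogs was -1.45 ± 0.24 (SE). By sample number it was -1.64 ± 0.29 for insulin sample 1, -1.28 ± 0.29 for insulin sample 2 and -1.47 ± 0.37 for insulin sample 3, each over basal. These values share the same 3 basal libraries, and only dog 2 has both a sample 3 and a basal library. DNAJB4 was not called in any of these comparisons by sample number. Of all genes, 0% were called for sample 1 and for sample 3 over basal, and 0.0479% for sample 2 over basal (0.0342% lower and 0.0137% higher). DNAJB4 was 1 of 20 genes called in insulin against basal by edgeR at an adjusted p of 0.05 (0.137% of the genes tested, with 16 genes or 0.109% lower and 4 genes or 0.0273% higher), and it was the only one of the 10 members called. Since this contrast chose the gene, nothing is read from that call.

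The DNAJB4 value rested most on the basal library of dog 2. Without that library the log2 fold change of DNAJB4 was -1.0 (edgeR adjusted p = 0.331, against 0.0311 with all libraries). It was -1.50 (adjusted p = 0.247) without the basal library of dog 4 and -1.77 (adjusted p = 0.0176) without that of dog 3. Leaving out an insulin library hardly moved the fold change but also lost the call in 5 cases. In dog 2 these were sample 2 (-1.47, adjusted p = 0.082) and sample 3 (-1.45, 0.0797). In dog 3 it was sample 1 (-1.46, 0.096), and in dog 4 both insulin libraries (sample 1 at -1.48, 0.103, and sample 2 at -1.45, 0.114). Leaving out a whole dog gave an adjusted p of 0.0554 without dog 1, 0.25 without dog 2 (log2 fold change -1.01), 0.0443 without dog 3 and 0.423 without dog 4. With counts summed per dog and stimulation it was -1.39, with adjusted p = 0.735, the highest of all alternatives. DESeq2 gave -1.44 (adjusted p = 8.81e-05). Without a filter on low counts the adjusted p was 1.52e-11, the lowest of the alternatives. These values describe the contrast that chose the gene and are no support for it.

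**Figure D1:**
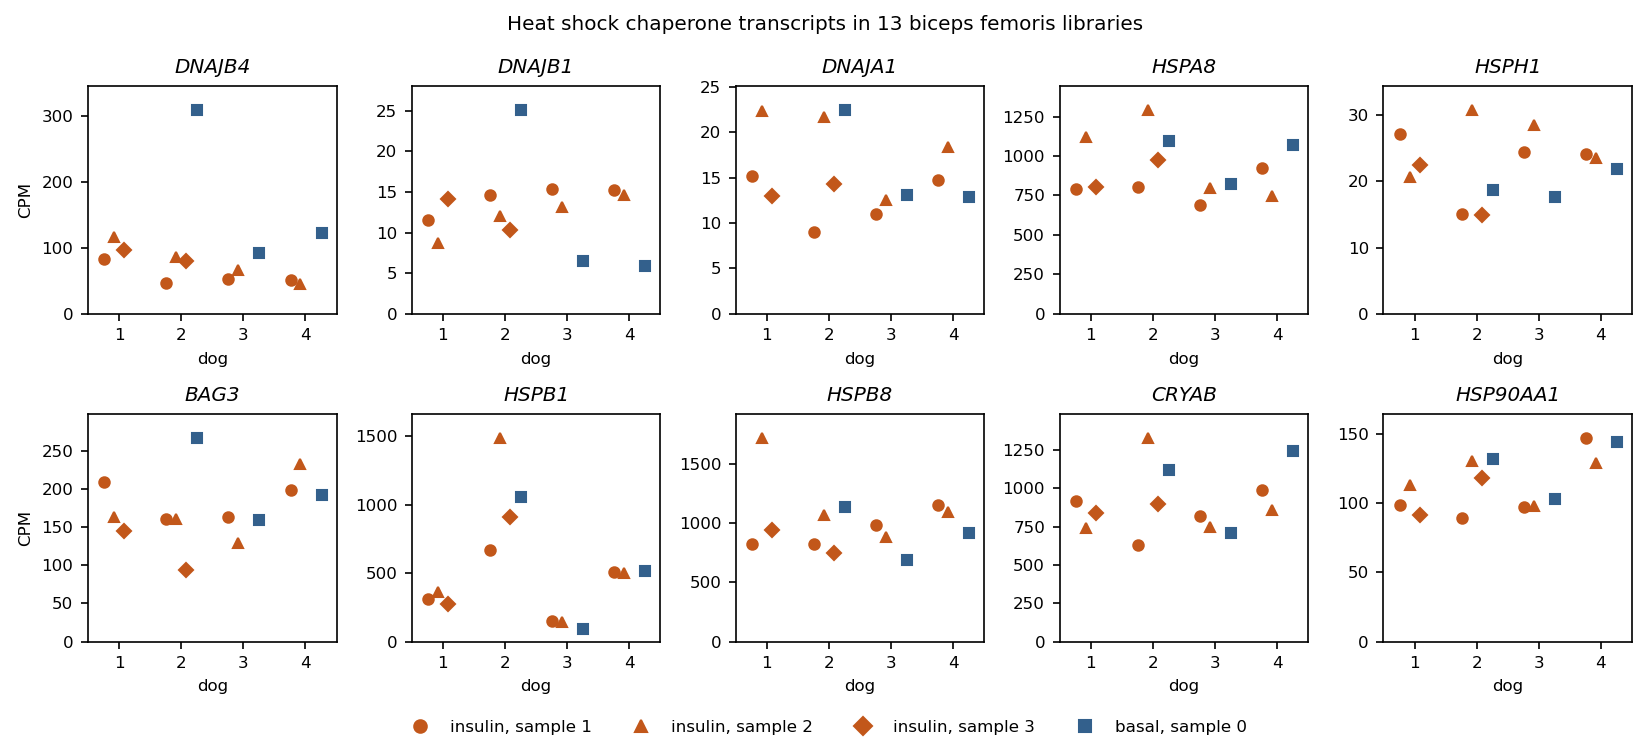
Level in CPM (vertical axis, from 0) of each of the 10 chaperone genes in 13 libraries, by dog, with insulin samples 1 to 3 in orange and basal sample 0 in blue. DNAJB4 is below its basal square in dogs 2, 3 and 4, the basal library of dog 2 stands highest at 308 CPM, and HSPB1 falls into a separate range in each dog.

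DNAJB1 (ENSCAFG00000016286), the classical heat-inducible HSP40, did not follow DNAJB4. In dog 2 it had 14.7, 12 and 10.4 CPM in insulin samples 1, 2 and 3, against 25.0 CPM basal. In dog 3 it had 15.4 and 13.2 CPM in insulin samples 1 and 2, against 6.45 CPM basal, and in dog 4 it had 15.2 and 14.7 CPM, against 5.89 CPM basal. The insulin libraries of dog 2 were thus all below their basal partner, and those of dogs 3 and 4 were all above theirs, at a mean of 221% and 254% of it. Dog 1 had 11.6, 8.76 and 14.1 CPM in insulin samples 1, 2 and 3. The log2 fold change of DNAJB1 was 0.25 ± 0.36 (SE), with 13 ± 2.23 CPM in insulin libraries (SD, n = 10) and 12.5 ± 10.9 CPM in basal libraries (SD, n = 3). Without the basal library of dog 2 it was 1.24 (edgeR adjusted p = 0.0957), and without that of dog 4 it was -0.17. The difference in direction between dogs was not tested, since each dog has 1 basal library.

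DNAJA1 (ENSCAFG00000001818), a farnesylated type I J protein, had 9.02 to 22.4 CPM in insulin libraries with a median of 14.5 CPM, and 22.4, 13.1 and 12.8 CPM in the basal libraries of dogs 2, 3 and 4. The pooled groups overlapped, but within dogs the insulin libraries were below the basal one in 3 of 3 cases in dog 2 and 2 of 2 in dog 3, and above it in 2 of 2 in dog 4. The log2 fold change was -0.16 ± 0.26 (SE), and 0.10 without the basal library of dog 2. HSPA8 (ENSCAFG00000011666), the constitutive HSP70 that J proteins serve, had 692 to 1289 CPM in insulin libraries with a median of 805 CPM, and 1094, 821 and 1072 CPM in the basal libraries of dogs 2, 3 and 4. Its insulin libraries were below the basal one in 2 of 3 cases in dog 2, 2 of 2 in dog 3 and 2 of 2 in dog 4, with a log2 fold change of -0.20 ± 0.18 (SE). HSPH1 (ENSCAFG00000006538), an HSP110 exchange factor for HSP70, had 14.9 to 30.7 CPM in insulin libraries with a median of 23.9 CPM, and 18.7, 17.7 and 21.9 CPM in the basal libraries of dogs 2, 3 and 4. Its insulin libraries were below the basal one in 2 of 3 cases in dog 2, 0 of 2 in dog 3 and 0 of 2 in dog 4. The log2 fold change of HSPH1 was 0.26 ± 0.22 (SE). Reads of HSPA8, DNAJA1 and HSP90AA1 may also match near-identical copies elsewhere in the genome, and how the authors counted such reads is not given in the sources used here.

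BAG3 (ENSCAFG00000012199), the exchange factor and scaffold of chaperone-assisted autophagy, was lower in every insulin library of dog 2 but not of dogs 3 and 4. In dog 2 it had 161, 161 and 93.3 CPM in insulin samples 1, 2 and 3, against 266 CPM basal. In dog 3 it had 163 and 129 CPM in insulin samples 1 and 2, against 159 CPM basal, and in dog 4 it had 199 and 232 CPM, against 192 CPM basal. Dog 1 had 209, 163 and 144 CPM in insulin samples 1, 2 and 3. All insulin libraries of dog 2 were thus below its basal library, 1 of 2 in dog 3 was, and none of the 2 in dog 4. The log2 fold change was -0.36 ± 0.22 (SE) with all libraries and 0.02 without the basal library of dog 2.

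Of the small heat shock proteins, HSPB1 (ENSCAFG00000013544, HSP27) is described by dog below and had a log2 fold change of 0.16 ± 0.22 (SE) in insulin over basal. HSPB8 (ENSCAFG00000030537), the partner of BAG3, had 743 to 1714 CPM in insulin libraries with a median of 958 CPM, and 1134, 684 and 917 CPM in the basal libraries of dogs 2, 3 and 4. Its insulin libraries were all below the basal one in dog 2 and all above it in dogs 3 and 4, and the log2 fold change was 0.08 ± 0.23 (SE). CRYAB (ENSCAFG00000014074), alpha-B-crystallin, had 631 to 1328 CPM in insulin libraries with a median of 850.4 CPM, and 1119, 706 and 1242 CPM in the basal libraries of dogs 2, 3 and 4, a log2 fold change of -0.18 ± 0.20 (SE). HSP90AA1 (ENSCAFG00000018036), the inducible cytosolic HSP90, had 88.9 to 147 CPM in insulin libraries with a median of 106 CPM, and 132, 103 and 144 CPM in the basal libraries of dogs 2, 3 and 4, a log2 fold change of -0.13 ± 0.15 (SE). In all 4 genes the 2 pooled groups overlapped. Within dogs, HSP90AA1 was below the basal library in 3 of 3 insulin libraries of dog 2, 2 of 2 of dog 3 and 1 of 2 of dog 4. CRYAB and HSPB1 were each below it in 2 of 3 cases in dog 2, 0 of 2 in dog 3 and 2 of 2 in dog 4.

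Taking the 10 members as a list, the median log2 fold change in insulin over basal was -0.15, against 0.00 over all 14629 genes, with 4 members positive and 6 negative. None of the other 9 members had every insulin library on 1 side of the basal library in dogs 2, 3 and 4, a pattern that 6.13% of all genes showed (3.44% below and 2.69% above). None of the 10 separated the insulin from the basal libraries without overlap, which 0.930% of all genes did.

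**Figure D2:**
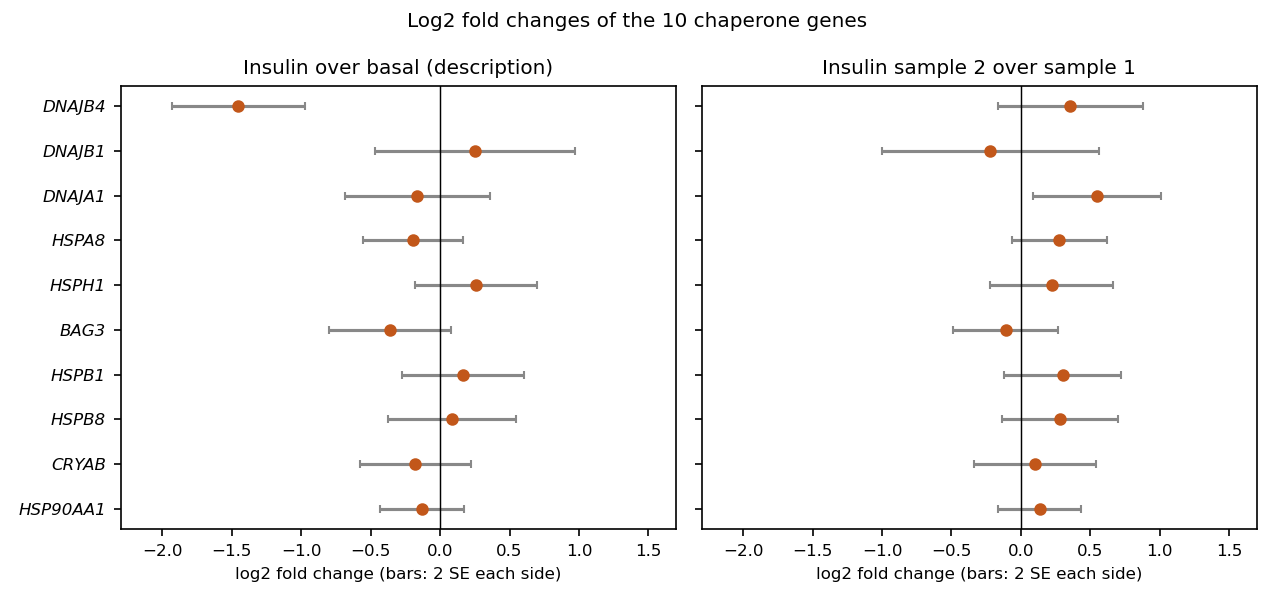
Log2 fold changes (horizontal axis) of the 10 chaperone genes for insulin over basal, left, and insulin sample 2 over sample 1, right, with bars of 2 SE on each side. In insulin over basal DNAJB4 lies at -1.45 and the others lie between -0.36 and 0.26, and in sample 2 over sample 1 the bar of DNAJA1 does not reach 0.

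Other transcripts also moved with the basal library of dog 2. The summed level of 8 immediate early genes, rapid responders to stress and handling, was 262, 304 and 181 CPM in insulin samples 1, 2 and 3 of dog 2, against 984 CPM in its basal library. It was 126 and 108 CPM in insulin samples 1 and 2 of dog 3, against 131 CPM basal, and 134 and 142 CPM in those of dog 4, against 78.6 CPM basal. The immediate early sum was thus below the basal one in every insulin library of dogs 2 and 3 and above it in those of dog 4. EGR1 had 3.45, 4.97 and 2.26 CPM in insulin samples 1, 2 and 3 of dog 2, against 129 CPM basal, and FOSB had at most 0.115 CPM in any library and was not tested. Summed red blood cell markers (6 of 6 counted) were 1.84, 0.933 and 1.92 CPM in insulin samples 1, 2 and 3 of dog 2, against 1.92 CPM basal. They were 0.766 and 1.32 CPM in insulin samples 1 and 2 of dog 3, against 3.36 CPM basal, and 1.35 and 1.25 CPM in those of dog 4, against 4.78 CPM basal. The red cell sums were thus below the basal one in every insulin library of dogs 3 and 4. In dog 2 they were below it in insulin samples 1 and 2, and sample 3 was level with it at 1.92 CPM. Summed neutrophil markers (7 of 7 counted) were 31.9, 25.9 and 53.3 CPM in insulin samples 1, 2 and 3 of dog 2, against 40.7 CPM basal. They were 26.1 and 25.1 CPM in insulin samples 1 and 2 of dog 3, against 74.5 CPM basal, and 24.5 and 39.3 CPM in those of dog 4, against 31.9 CPM basal. The neutrophil sums were below the basal one in every insulin library of dog 3 only. The median log2 fold change in insulin over basal was -1.92 over the 4 red cell markers tested and -1.24 over the 6 neutrophil markers tested, and none of these genes passed (edgeR), while the unadjusted p was under 0.05 for, among others, ALAS2 (0.00351) and HBM (0.0243) of red cells, and S100A12 (0.00933), CSF3R (0.0128) and CXCR2 (0.0328) of neutrophils. The part of handling or of blood in the DNAJB4 difference was not tested. In bulk tissue, fewer cells of a type and less RNA per cell cannot be told apart.

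Comparisons among insulin samples were contrasts of the fit to all 13 libraries, in which the basal libraries inform the dog terms and the spread, and were repeated with the 10 insulin libraries only. In insulin sample 2 over sample 1, 0 of 10 members and 0 of 14629 genes passed (0% called; edgeR quasi-likelihood test), while 495 genes had an unadjusted p under 0.05 and DESeq2 called 0. With insulin libraries only, 0 genes passed in any of the 3 comparisons among insulin samples, and 343 to 593 had an unadjusted p under 0.05. DNAJB4 was higher in sample 2 in 3 of 4 dogs, at 117, 85.6, 66 and 45.2 CPM in sample 2 of dogs 1 to 4, against 82.4, 46.8, 52.2 and 50.8 CPM in sample 1. Its log2 fold change was 0.36 ± 0.26 (SE; interval of 2 SE each side -0.16 to 0.87; adjusted p = 0.902). DNAJA1 was higher in sample 2 in 4 of 4 dogs, at 22.4, 21.7, 12.5 and 18.3 CPM in sample 2 of dogs 1 to 4, against 15.2, 9.02, 11 and 14.8 CPM in sample 1. Its log2 fold change was 0.55 ± 0.23 (SE), with an interval of 0.10 to 1.0. It was the only member with an unadjusted edgeR p under 0.05 (0.0332), and it did not pass adjustment (edgeR adjusted p = 0.902). With insulin libraries only, the log2 fold changes were 0.38 ± 0.19 for DNAJB4 and 0.57 ± 0.22 for DNAJA1 (SE). DNAJB1 was lower in sample 2 in 4 of 4 dogs, with log2 ratios between -0.41 and -0.05 and a fitted log2 fold change of -0.22 ± 0.39 (SE). The members' median was 0.25, against -0.02 over all genes, with 8 of 10 members and 6959 of all 14629 genes positive.

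Several of these differences were largest in dog 2. Without sample 1 of dog 2, the log2 fold change of sample 2 over sample 1 was 0.14 for DNAJB4 and 0.32 for DNAJA1. The HSPB1 level of dog 2 was 1485 CPM in sample 2, against 669 CPM in sample 1. CRYAB had 1328 CPM in sample 2 and 631 CPM in sample 1 of this dog, and HSPH1 had 30.7 CPM in sample 2 and 15.0 CPM in sample 1. In the other 3 dogs the log2 ratio of sample 2 over sample 1 lay between -0.06 and 0.21 for HSPB1 and between -0.30 and -0.14 for CRYAB. In dog 1, HSPB8 stood out instead, with 1714 CPM in sample 2 and 823 CPM in sample 1, in the library where ACTA1 took 18.4% of the counts, and the part of that library's composition was not tested.

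Sample 3 exists for dogs 1 and 2 only. In sample 3 over sample 1, 0 of 10 members and 0 of all genes passed (0% called; edgeR), with 575 genes at an unadjusted p under 0.05 and 2 calls by DESeq2. BAG3 had 144 and 93.3 CPM in sample 3 of dogs 1 and 2, against 209 and 161 CPM in sample 1, a log2 fold change of -0.71 ± 0.26 (SE; unadjusted p = 0.0187, adjusted p = 0.989). In sample 3 over sample 2, again 0 of 10 members and 0 of all genes passed (0% called; edgeR), with 757 genes at an unadjusted p under 0.05 and 8 calls by DESeq2. All 10 members had negative fitted log2 fold changes there, as did 7487 of all 14629 genes. The members' median was -0.36, against -0.01 over all genes, and with insulin libraries only DNAJB1 was positive (0.20). In dog 2 every member was lower in sample 3 than in sample 2. In dog 1 DNAJB1 (14.1 against 8.76 CPM), HSPH1 (22.4 against 20.7 CPM) and CRYAB (842 against 743 CPM) were higher in sample 3, and the other members were lower. Members vary together, so these signs are not independent. BAG3 (-0.60 ± 0.26, SE), DNAJA1 (-0.62 ± 0.29, SE) and HSPB8 (-0.59 ± 0.28, SE) were the lowest, each with an edgeR adjusted p of 0.946. DNAJB4 was at 0.17 ± 0.34 (SE) in sample 3 over sample 1 and at -0.19 ± 0.33 (SE) in sample 3 over sample 2. With insulin libraries only these were 0.34 ± 0.26 and -0.04 ± 0.25 (SE), and BAG3 was at -0.62 ± 0.23 in sample 3 over sample 1.

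The clearest measured difference among the members that the choice did not use was between animals, in HSPB1. This gene, which encodes HSP27, an actin-protecting chaperone of muscle and many other tissues, had 669, 1485 and 909.7 CPM in insulin samples 1, 2 and 3 and 1057 CPM in the basal library of dog 2. Dog 4 had 506 and 499.5 CPM in insulin samples 1 and 2 and 517 CPM basal. Dog 1 had 311, 360.5 and 272 CPM in insulin samples 1, 2 and 3, and dog 3 had 149 and 143 CPM in insulin samples 1 and 2 and 92.9 CPM basal. The ranges of the 4 dogs did not overlap, with dog 2 highest, then dog 4, dog 1 and dog 3, which was the case for 14 of the 14629 genes tested (0.0957%). The means were 1030.2 ± 343 CPM (SD, n = 4 libraries) in dog 2, 507 ± 8.67 CPM (SD, n = 3) in dog 4, 314 ± 44.6 CPM (SD, n = 3) in dog 1 and 128 ± 30.6 CPM (SD, n = 3) in dog 3.

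The fitted HSPB1 range between the highest and the lowest dog was 3.01 on the log2 scale (edgeR F test of the 3 dog terms, adjusted p = 9.14e-05, rank 27 of 14629). Dogs accounted for 93.8% of the variance of log2 HSPB1 among libraries, and for 12.3% to 62.8% in the other 9 members. These shares are not adjusted for the number of dogs, so part of each arises without any difference between dogs. They were not computed over all genes. Across all genes 614 (4.20%) passed this test, and of the 10 members HSPB1 alone did. The HSPB1 call held in all 21 alternatives, with adjusted p up to 0.0105 when only insulin libraries entered (range 2.84 on the log2 scale). Without dog 3 the range was 1.71 (adjusted p = 0.00972). HSP90AA1 had the next smallest p among members other than DNAJB4, with a range of 0.49 (adjusted p = 0.296), and dog 4 was highest at 140 ± 9.72 CPM (SD, n = 3). For DNAJB4 the range between dogs was 1.08 (adjusted p = 0.104), and it passed with DESeq2 (adjusted p = 0.0185), without a filter (5.05e-05) and without dog 2 sample 1 (0.0329).

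Fibre type and early response markers also differed between the animals. Summed slow fibre markers (7 genes) ranged from 21160 to 35553 CPM in dog 2, from 41051 to 52915 CPM in dog 4, from 28644 to 34054 CPM in dog 1 and from 36619 to 38224 CPM in dog 3. Summed fast fibre markers (8 genes) ranged from 72517 to 103257 CPM in dog 2, from 60321 to 68251 CPM in dog 4, from 57443 to 82165 CPM in dog 1 and from 56621 to 67394 CPM in dog 3. Dog 4 thus had the highest slow fibre sums, and the fast fibre sums of dog 2 were above those of dogs 3 and 4 and overlapped those of dog 1. Dog 2 also had the highest immediate early sums, at 181 to 984 CPM. The part of fibre composition or of handling in the HSPB1 difference was not tested, and the animal cannot be told apart from anything else that differed between the dogs' biopsies.

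**Figure D3:**
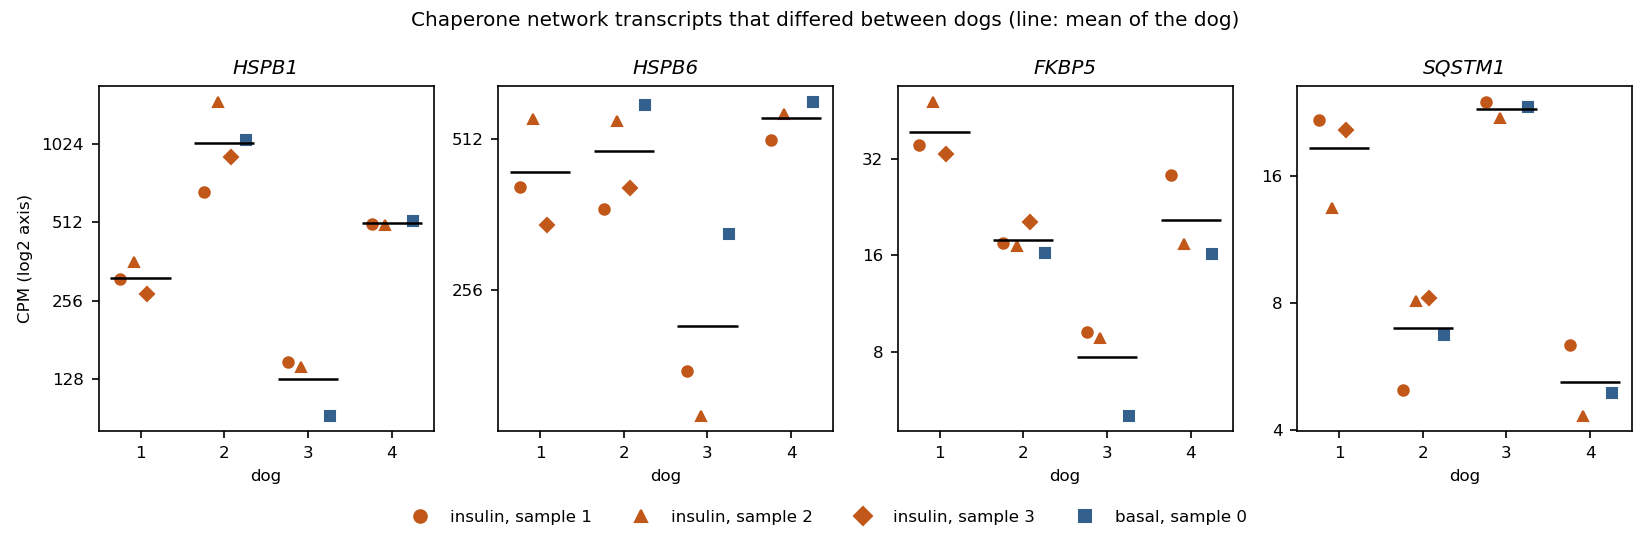
Level in CPM (vertical log2 axis) of HSPB1, HSPB6, FKBP5 and SQSTM1 in each library, by dog, with insulin samples in orange, basal sample 0 in blue and a line at the mean of each dog. HSPB1 runs from 92.9 CPM in dog 3 to 1485 CPM in dog 2 without overlap between dogs, while SQSTM1 is low in dogs 2 and 4.

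The wider chaperone network was read from 9 lists with 81 symbols, of which 69 were found and 68 tested, and the other 12 symbols, among them the stress-inducible HSPA1A, HSPA1B and HSPA6, were not analysed here. In insulin against basal 0 of 68 genes were higher and 0 lower past the threshold (edgeR). An unadjusted edgeR p under 0.05 was found for 5 of the 68, against 603 of all 14629 genes tested. Their median log2 fold change was 0.05. In each comparison among insulin samples 0 of 68 passed as well. Between dogs 3 of 68 passed (4.41%, against 4.20% of all genes): HSPB6, FKBP5 and SQSTM1.

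HSPB6 (ENSCAFG00000006801, HSP20), a small heat shock protein of muscle, averaged 564 ± 50.1 CPM in dog 4, 484 ± 111 in dog 2, 439 ± 112 in dog 1 and 217 ± 99.5 in dog 3 (SD, n = 3, 4, 3 and 3 libraries). The HSPB6 range between dogs was 1.45 on the log2 scale (edgeR adjusted p = 0.0130), and it was 0.26 (adjusted p = 0.819) without dog 3. The call was also lost without dog 3 sample 1 (1.43, adjusted p = 0.105) or dog 3 sample 2 (1.28, adjusted p = 0.0945). FKBP5 (ENSCAFG00000001343), an HSP90 cochaperone induced by glucocorticoids, averaged 38.9 ± 8.15 CPM in dog 1, 20.6 ± 6.80 in dog 4, 17.8 ± 1.78 in dog 2 and 7.70 ± 2.30 in dog 3, a range of 2.22 (adjusted p = 0.000792) that was 1.04 (adjusted p = 0.0628) without dog 3. SQSTM1 (ENSCAFG00000000360, p62), the receptor that hands BAG3 clients to autophagosomes, averaged 23.1 ± 1.00 CPM in dog 3, 18.6 ± 4.48 in dog 1, 6.99 ± 1.51 in dog 2 and 5.19 ± 1.04 in dog 4. Its range of 2.16 (adjusted p = 0.000244) passed in all 21 alternatives. SQSTM1 was thus highest in dog 3, the dog in which HSPB1 was lowest.

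Within the lists, no gene passed in insulin against basal, and the following are the 1 or 2 of lowest p in each among genes with a mean log2 CPM of at least 1. Among cytosolic J proteins (0 of 10 called), DNAJB5, a close relative of DNAJB4, had a log2 fold change of -0.34 ± 0.16 (SE) and -0.04 without the basal library of dog 2, and DNAJC7 had -0.34 ± 0.22. Among HSP70 and HSP110 proteins (0 of 7), HSPA4 was at -0.20 ± 0.24 and HSPA2 at 0.15 ± 0.19. In the list of small heat shock proteins (0 of 5), HSPB6 was at -0.55 ± 0.20 (unadjusted p = 0.0157). HSPB11, which was put in this list by its symbol only, was at 0.45 ± 0.21. Exchange factors and adaptors (0 of 9) had BAG2, an inhibitor of the ligase CHIP, at 0.27 ± 0.17 and BAG4 at -0.37 ± 0.34. Among HSP90 and its cochaperones (0 of 11), FKBP5 was at 0.48 ± 0.20 (unadjusted p = 0.0284) and FKBP4 at 0.22 ± 0.19.

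In the remaining lists no gene passed either. Subunits of the cytosolic chaperonin, which folds actin and tubulin, were led by CCT8 at 0.16 ± 0.16 and CCT5 at 0.13 ± 0.19 (0 of 7 called). HSF1, the heat shock transcription factor, was at 0.16 ± 0.16 and HSBP1, which binds it, at 0.17 ± 0.21 (0 of 6 called). BAG3 partners in selective autophagy (0 of 4 called) included FLNC, the filamin client, at -0.40 ± 0.45 and SYNPO2 at -0.22 ± 0.30. Chaperones of the endoplasmic reticulum and mitochondria (0 of 10 called) had DNAJA3 at 0.28 ± 0.17 and DNAJB9 at -0.17 ± 0.18. IER5, an early response gene tied to HSF1, belonged to the list of heat shock factors and their targets, fell below that level, and is named here after its values were seen. It had the lowest p of all listed chaperone genes, with a log2 fold change of -2.62 (unadjusted p = 0.000323, edgeR adjusted p = 0.110). Its levels were 0.414, 0.658 and 0.685 CPM in insulin samples 1, 2 and 3 of dog 2, against 5.84 CPM basal. They were 0.283 and 0.0743 CPM in insulin samples 1 and 2 of dog 3, against 2.05 CPM basal, and 0.855 and 0.461 CPM in those of dog 4, against 0.647 CPM basal. All insulin libraries of dogs 2 and 3 were thus below their basal partner, and 1 of 2 in dog 4 was.

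Among the members themselves, deviations from the dog mean in log2 CPM were compared over the 13 libraries as a description. The 45 pairs had a median Pearson r of 0.40, from -0.45 to 0.84, and 39 were positive; libraries that share 1 dog mean and 1 scaling are not independent. HSPA8 and HSP90AA1 (0.84), DNAJA1 and HSP90AA1 (0.83) and HSPH1 and HSPB1 (0.81) were the closest pairs, and DNAJB1 and HSPA8 (-0.45) the most opposed. DNAJB4 was nearest to HSP90AA1 (0.66) and HSPA8 (0.59), and its r with DNAJB1 was -0.08. With the basal library of dog 2 left out of the correlation, these were 0.62, 0.71 and -0.64. The mean of dog 2 still included that library, so its weight was not fully removed from these values.

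The 5 genes most like DNAJB4 by the same measure, among 8427 with a symbol and a mean log2 CPM of at least 1, were COQ10B (r = 0.92), CLK4 (0.90), VRK2 (0.90), SGK1 (0.89) and IFRD1 (0.89). COQ10B encodes a coenzyme Q binding protein, CLK4 a kinase of splicing factors, VRK2 and SGK1 other kinases, and IFRD1 a transcriptional regulator. The basal library of dog 2 was also left out of the correlation, though it stayed in the mean of dog 2. The r values were then 0.85 for COQ10B, 0.92 for CLK4, 0.80 for VRK2, 0.83 for SGK1 and 0.79 for IFRD1. They are thus not free of that library. The 5 genes were picked by likeness to DNAJB4 over the same 13 libraries, and DNAJB4 was itself chosen as lower in insulin. Higher basal levels of these genes within dogs follow from that choice and are no separate result. SGK1 averaged 21.6 CPM in insulin and 88.7 CPM in basal libraries, and IFRD1 52.6 CPM in insulin and 159 CPM in basal libraries. CLK4 averaged 22.4 CPM in insulin and 31.5 CPM in basal libraries, and COQ10B 10.3 CPM in insulin and 14.9 CPM in basal libraries. VRK2 averaged 4.88 CPM in insulin and 4.33 CPM in basal libraries, because dog 1, which has no basal library, had 8.25 to 9.29 CPM. Within dogs 2, 3 and 4 VRK2 was lower in every insulin library, at 2.77 to 3.87 CPM in insulin and 3.38 to 4.88 CPM in basal libraries.

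**Figure D4:**
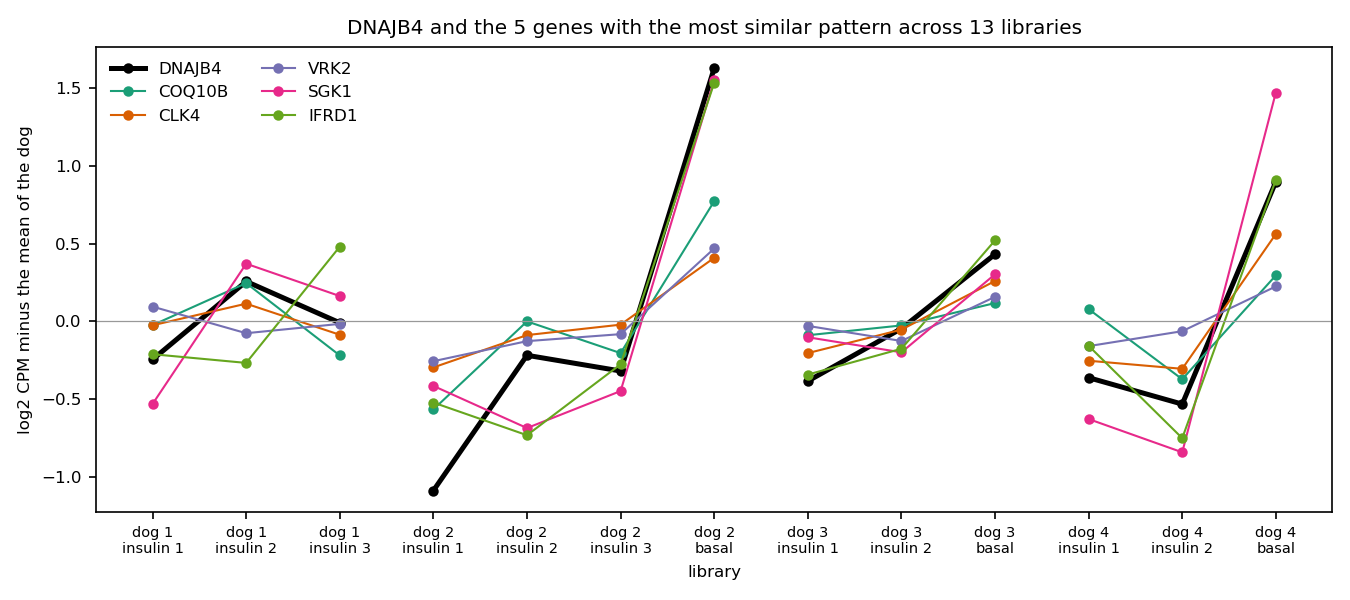
Log2 CPM minus the mean of the dog (vertical axis) for DNAJB4, in black, and the 5 genes of most similar pattern in 13 libraries, with the insulin samples of each dog left of its basal library. In dogs 2, 3 and 4 all 6 genes are highest in the basal library, and the libraries of dog 1 are all insulin. The 5 genes were picked for likeness to DNAJB4 in these libraries, so the shared pattern is no separate result.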

How the data were processed

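RNA from biceps femoris biopsies of 4 dogs was sequenced as 13 libraries, made with a SMART-Seq and a Nextera XT kit per the labels' protocols, which do not mark strand. The authors deposited raw read counts per gene, and a normalized signal, the counts divided by 1 size factor per library, which was used only to check the columns (largest relative deviation 5.44e-15). The submitters' processing notes name Bowtie 0.12.2 and CanFam3.1 without their roles; the counting program, annotation release and strand setting are not given in the sources used here, so counts may include overlapping or antisense transcripts. No coordinates came with the counts.

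The deposited counts went into robust quasi-likelihood fits of edgeR 4.0.16 (R 4.3.3; filterByExpr, TMM), with Benjamini-Hochberg adjustment over 14629 genes and a threshold of 0.05. Models held dog and stimulation, or dog and sample number; the difference between dogs was an F test of the 3 dog terms. Each SE is the absolute fold change over the root of F, and libraries of 1 dog were treated as independent given the dog. The dog numbers name animals: deviations from group means had a median r of 0.171 over 15 same-dog pairs and -0.0658 over 47 pairs of different dogs. No pair of libraries of the same dog or the same group looked like 1 library deposited again (chi-square per gene 51.7 to 789). Other pairs were not checked in this way. Scripts were tested on simulated counts. Alternatives were RLE scaling, no filter, DESeq2 1.42.0, no dog block, counts summed per dog, and each library and each dog left out; insulin libraries alone were added, for the dog test and the comparisons among insulin samples, after seeing the data.

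The members and gene lists were chosen with earlier results of these data known. Named were all 10 members; in each chaperone list the genes past the threshold and otherwise up to 2 of lowest p in insulin against basal with a mean log2 CPM of at least 1; and the 5 genes most like DNAJB4. The 24 lists held 163 symbols, of which 147 were found; 14 were cell type markers, and their summed levels stand beside the results or in the closing section.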

Additional observations from a re-analysis of the deposited data

Results flagged for a closer look

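In 4 of 30 groups of libraries tested, 1 library lay far from the rest by Dixon's test, which chance does in about 1 group in 20 when libraries and groups are independent. Here they were not, because dogs gave several libraries, the groups share libraries and members vary together, so that rate is only a guide. DNAJB4 in insulin sample 1 had 82.4 CPM in dog 1, with the next at 52.2 and the lowest at 46.8 CPM. HSPB8 among the insulin libraries had 1714 CPM in dog 1 sample 2, with the next at 1153 CPM. CRYAB among the insulin libraries had 1328 CPM in dog 2 sample 2, with the next at 989.6 CPM. HSP90AA1 in insulin sample 1 had 147 CPM in dog 4, with the next at 98.7 CPM.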

How the results depend on the processing

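The number of genes called in insulin against basal, 20 in all, was 140 without a filter, 104 with DESeq2, 6 with no dog block (no replicate block) and 1 with counts summed per dog and stimulation, and between 4 and 28 when 1 library or dog was left out. Between dogs 614 genes passed, 1831 without a filter, 1456 with DESeq2, 184 with insulin libraries only, and 236 to 814 when 1 library or dog was left out. In sample 3 over sample 1 and sample 3 over sample 2 DESeq2 called 2 and 8 genes, against 0, and sample 2 over sample 1 had 0 in all 22 alternatives. With no replicate block, DNAJB4 in insulin against basal was -1.27 (adjusted p = 0.249). Reversals of sign concerned uncalled members. In insulin against basal, DNAJA1 (-0.16) was 0.10 and BAG3 (-0.36) was 0.02 without the basal library of dog 2, HSPB1 (0.16) was -0.04 and HSPB8 (0.08) was -0.07 without that of dog 3, and DNAJB1 (0.25) was -0.17 without that of dog 4. Signs also turned with insulin libraries only, for DNAJB1 (0.20) in sample 3 over sample 2 and DNAJA1 (0.03) in sample 3 over sample 1. They turned with no replicate block for DNAJB4 (0.17) and DNAJB1 (0.01) in sample 3 over sample 2, and for DNAJA1 (0.12), HSPB1 (0.53) and HSP90AA1 (-0.04) in sample 3 over sample 1. When 1 library or dog was left out, sample 3 over sample 1 ranged from -0.13 to 0.35 for DNAJB4, -1.06 to 0.36 for DNAJB1, -0.38 to 0.09 for DNAJA1 and -0.21 to 0.14 for HSP90AA1. Sample 3 over sample 2 ranged from -0.86 to 0.59 for DNAJB1, -0.23 to 0.20 for CRYAB and -0.28 to 0.02 for HSP90AA1, and sample 2 over sample 1 from -0.07 to 0.40 for HSPH1 and -0.22 to 0.23 for CRYAB. The causes were not tested. RLE scaling changed no call or direction of a member. Depth was not varied, so its part was not tested.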

Other observations

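Marker sums of other cell types gave the following ranges in insulin and basal libraries. Fibroblast markers summed to 321 to 1186 CPM in insulin libraries and 228 to 2895 CPM in basal libraries, the highest in dog 3. Endothelial markers summed to 72.5 to 288 CPM in insulin and 92.8 to 335 CPM in basal libraries, and smooth muscle and pericyte markers to 76.4 to 225 CPM in insulin and 86.8 to 176 CPM in basal libraries. Adipocyte markers summed to 15.1 to 42.9 CPM in insulin and 10.8 to 78.3 CPM in basal libraries, and macrophage markers to 6.13 to 28.6 CPM in insulin and 9.86 to 47.3 CPM in basal libraries. Lymphocyte markers were at 0.359 to 1.23 CPM in insulin and 0.462 to 1.37 CPM in basal libraries, satellite cell markers at 2.38 to 5.34 CPM in insulin and 2.67 to 3.97 CPM in basal libraries, and nerve and Schwann cell markers at 12 to 22.4 CPM in insulin and 15.3 to 22.5 CPM in basal libraries. The 2 keratinocyte markers found summed to 24.4 to 60.8 CPM in insulin and 24.8 to 35.3 CPM in basal libraries. Skeletal muscle markers summed to 230114 to 393319.9 CPM in insulin and 221421 to 289964 CPM in basal libraries. Between dogs, the immediate early genes FOS and NR4A1 passed (edgeR adjusted p = 5.67e-05 and 0.00488). In dog 2, FOS had 43.3 to 108 CPM in insulin libraries and 239 CPM in the basal library.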
